A study of Mus musculus with 6 samples.

Results

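*Dtx3l*, *Dtx3* and *Dtx2* of the Deltex ubiquitin ligase family and *Parp9*, *Parp14*, *Parp10*, *Parp11*, *Parp12*, *Parp8* and *Parp3* of the PARP family were followed in osteoclast precursors (OCPs) with and without *lincRNA-EPS*, a long noncoding RNA of macrophages. These 10 genes were taken by symbol from a table of 57180 genes, and all 10 were among the 13428 genes with enough reads to be tested. They were chosen by gene family, a known antiviral role of several members, and the KO against WT fold changes of these same libraries, in which *Dtx3l* was among the larger decreases. The KO against WT values of the 10 genes are therefore a description, and counts of these genes past the limits are not a test of them.

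Deltex proteins attach ubiquitin to other proteins and carry a domain that binds ADP-ribose. The PARP enzymes of the set belong to the part of the family that adds single ADP-ribose units, apart from PARP9, which needs its partner DTX3L for activity. In virus-infected cells and macrophages many of these genes are switched on by interferon, and the DTX3L and PARP9 proteins form a complex that is known to strengthen that response.

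The study asked how *lincRNA-EPS* affects osteoclast differentiation, and RNA was sequenced from 3 WT and 3 KO cultures of RANKL-primed OCPs. The KO mice were *lincRNA-EPS*-/- animals made by a model organism centre, and the study's methods name C57BL/6 mice where they describe both genotypes for another experiment. How the allele was made, and the age, sex and pooling of the animals behind these cultures, are not given in the sources used here. Bone marrow cells of both genotypes were kept in M-CSF at 40 ng/ml for 24 h, after which RANKL at 40 ng/ml was added for 48 h. The labels name the cells bone marrow-derived macrophages and RANKL as the treatment, with no LPS or interferon. The study's methods describe its in vitro replicates as biological, each from its own mouse or its own culture, without saying which holds for the 3 libraries of a genotype. The p-values given for other genes therefore measure the spread between these samples, which may be one between cultures and not between animals.

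The libraries held 17757351 to 19998611 estimated counts. *Ttc39aos1*, the gene of *lincRNA-EPS*, had 20, 37 and 41 counts in the WT libraries and 0 in each KO library, a count of 0 allowing up to 3 counts. All 9 markers of macrophages and osteoclast precursors were detected, with summed levels of 5990 to 6350 normalized counts in WT and 6590 to 6720 in KO. They did not move one way, since all KO libraries lay above WT for 3, the osteoclast markers *Ctsk* (log2 fold change 0.77, and 0.75 after the GC correction described below), *Acp5* (0.38 and 0.58) and *Calcr* (0.41 and 0.30), and below WT for 3, the macrophage markers *Adgre1* (-0.29 and -0.36), *Csf1r* (-0.27 and -0.12) and *Itgam* (-0.25 and -0.27). The summed level of 11 neutrophil markers, was 1350 to 1530 in WT and 1780 to 2150 in KO, with *Ly6g* at a mean of 0.154 in WT and 0.103 in KO. KO lay above WT for 6 of them, among them *S100a9*, *S100a8* and *Ngp*, and below for 2, *Mpo* and *Elane*, and 3 overlapped. Of all genes tested, 18.8% had KO lower and 16.9% KO higher without overlap. KO lay above WT for 2 of 5 plasmacytoid dendritic cell markers and below for 0, with *Klk1* at 0. Their summed level was 2.83 to 3.45 in WT and 4.43 to 5.29 in KO. That of 5 mast cell or basophil markers, none at 0, was 4.09 to 5.57 in WT and 7.38 to 8.28 in KO, with KO above WT for 3 and below for 0. The part of these cells, and of the osteoclast and macrophage markers, in the results below was not tested, and in bulk RNA fewer cells of a type and less RNA per cell cannot be told apart. KO replicate 1 lay closer to WT replicates 1 and 3 (chi-square per degree of freedom of the counts over genes, 8.61 and 8.3) than to KO replicates 2 and 3 (35.8 and 51.9). Fold changes of all tested genes also ran with the GC content of the transcript (Pearson r = -0.51 across 13176 genes, which are not independent replicates), so log2 fold changes below are given with and without a correction for GC content.

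*Dtx3l* was the gene of the set that differed most between the genotypes. It encodes the ubiquitin ligase that partners PARP9 and lies on the minus strand at chr16:35926511-35939151 (GRCm38). Its normalized counts, in CPM (counts scaled to library size and by TMM), were 25.2, 26.8 and 26.2 in the WT libraries and 4.53, 6.1 and 5.75 in the KO libraries. All 3 KO libraries lay far below all 3 WT libraries, and the values within a genotype were close together. The means were 26.0 ± 0.806 (SD, n = 3) in WT and 5.46 ± 0.823 (SD, n = 3) in KO, so KO cultures held 21.0% of the WT level, a 4.77-fold difference. The log2 fold change was -2.25 (SE 0.14) and -2.37 (SE 0.12) after the correction for GC content. It ranked 7 from the largest decrease among the 13428 genes tested, and 3 among the 10053 genes with a mean of at least 5 normalized counts. A log2 fold change below -2 was seen for 9 genes in all. Leaving out KO replicate 1 gave -2.13.

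The limits were an adjusted p under 0.01 and a fold above 1.3. With edgeR's quasi-likelihood test they were passed by 0.00745% of the genes tested, which is 1 gene, and that gene was *Dtx3l*. The deleted *Ttc39aos1*, at 0 counts in each KO library, did not pass them, with an adjusted p of 0.12 in that test. A gene can thus differ between the genotypes and not pass. With DESeq2 the limits were passed by 1.22% of 10357 genes and by 2 of the 10 genes of the set, *Dtx3l* and *Parp14*. With edgeR after the GC correction they were passed by 0.0298% of genes, and by the same 2 of the set. *Dtx3l* did not pass in edgeR without WT replicate 2, WT replicate 3 or KO replicate 2, where its log2 fold change was -2.23, -2.25 and -2.34. These counts follow from how the genes were chosen and are given for completeness.

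**Figure D1:**
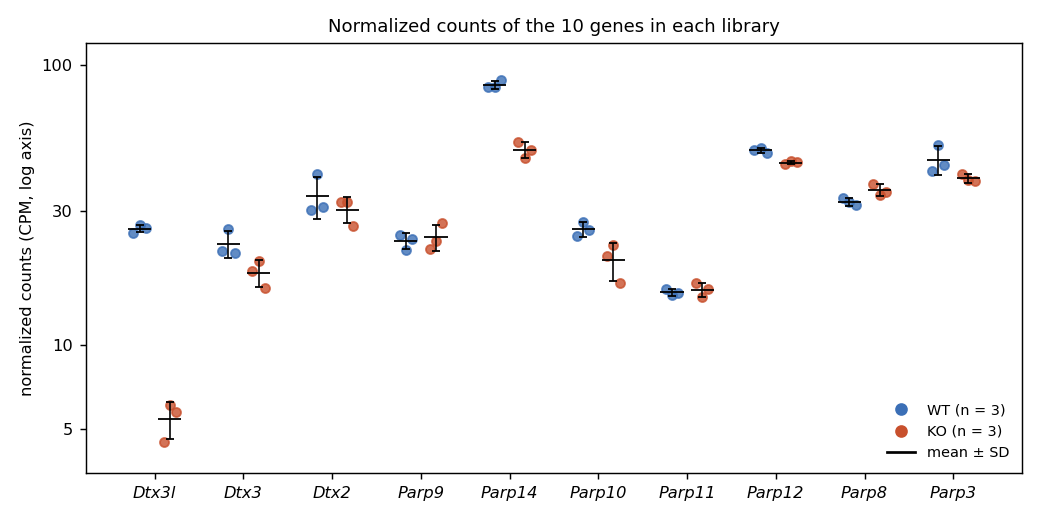
Normalized counts (CPM scaled by TMM, log axis) of the 10 genes in each of the 3 WT (blue) and 3 KO (orange) libraries, with black bars for the mean ± SD. The KO libraries of *Dtx3l* sit at 4.53 to 6.1 against 25.2 to 26.8 in WT, those of *Parp14* at 46.7 to 53.1 against 83.3 to 88.2, and the other 8 genes differ far less.

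*Parp14*, a large macrodomain PARP known as a cofactor of STAT6 in the interleukin-4 response, was next. It lies on the same chromosome and strand as *Dtx3l*, at chr16:35832874-35871544. Its normalized counts were 83.3, 83.5 and 88.2 in the WT libraries and 53.1, 46.7 and 49.5 in the KO libraries. Again the genotypes did not overlap, the nearest libraries being 83.3 in WT and 53.1 in KO. The means were 85.0 ± 2.75 in WT and 49.8 ± 3.22 in KO (SD, n = 3), 58.6% of the WT level, with a log2 fold change of -0.77 (SE 0.093) and of -0.88 (SE 0.081) after the GC correction. It ranked 296 from the largest decrease over all genes tested. Leaving out each library in turn moved the value between -0.82 and -0.73.

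*Parp9*, which encodes the partner of DTX3L, showed no such difference. Its normalized counts were 24.8, 21.9 and 24.0 in WT and 22.1, 23.5 and 27.2 in KO. The libraries of the genotypes were interleaved. The log2 fold change was 0.04 (SE 0.12), and -0.03 (SE 0.089) after the GC correction, its sign depending also on which library was left out (-0.051 to 0.11). The ratio of *Dtx3l* to *Parp9* estimated counts within a library, which is free of library scaling but not set per length, was 1.01, 1.22 and 1.09 in WT and 0.205, 0.261 and 0.211 in KO. Every KO ratio lay below every WT ratio. The *Dtx3l* to *Parp14* ratio was 0.306 ± 0.0124 in WT and 0.111 ± 0.0233 in KO (SD, n = 3), so of these genes, both lower in KO, *Dtx3l* was lower by the larger factor.

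*Parp9* lies on the plus strand at chr16:35938470-35972605, head to head with *Dtx3l*, and exons of the pair share 458 bases on opposite strands. These are 8.0% of the exonic bases of *Dtx3l* and 9.4% of those of *Parp9*. The library kit keeps the strand, but whether the counting used it is not given in the sources used here, and reads from the shared bases cannot be told apart without it. Estimated counts of *Dtx3l* were not whole numbers in any of the 6 libraries, and those of *Parp9* were not in 4 of 6, where 25.1% to 26.6% of the genes detected in a library had such values. The *Parp10* exons share 205 bases with those of *Plec* on the same strand, and its values were not whole in 2 libraries. *Parp14* shares 110 bases with a predicted gene and *Parp3* shares 20 with *Rrp9*, and both had whole counts throughout.

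The stretch before the *Dtx3l* start is shown because it belongs to the gene of the set with the largest difference and lies within the span of *Parp9*, and those of *Parp11* and *Dtx2* because they were the windows of the set with a match to an interferon element. RefSeq promoter windows (GRCm38.p6, 250 bases before to 50 bases after a start) were found for 6 of the 10 genes, *Dtx3l*, *Dtx2*, *Parp11* (2 windows), *Parp12*, *Parp8* and *Parp3*. They were searched on both strands for GAAA, any 2 bases and GAAA again, the letters of the interferon-stimulated response element (ISRE), and for TTCNNNGAA, the letters of the gamma-activated site (GAS). The bases printed are those outside annotated exons, 5′ to 3′ on the strand of the gene, with any match in capitals: *Dtx3l* at chr16:35939207-35939277 (minus), *Parp11* at chr6:127446590-127446839 (plus) and *Dtx2* at chr5:135994550-135994799 (plus).
Dtx3l: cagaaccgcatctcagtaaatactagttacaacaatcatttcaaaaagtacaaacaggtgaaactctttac
Parp11: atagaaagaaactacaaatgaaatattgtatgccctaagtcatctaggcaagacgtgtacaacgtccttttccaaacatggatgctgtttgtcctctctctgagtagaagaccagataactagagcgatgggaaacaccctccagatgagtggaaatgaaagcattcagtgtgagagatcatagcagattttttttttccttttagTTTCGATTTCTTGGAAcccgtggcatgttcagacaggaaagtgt
Dtx2: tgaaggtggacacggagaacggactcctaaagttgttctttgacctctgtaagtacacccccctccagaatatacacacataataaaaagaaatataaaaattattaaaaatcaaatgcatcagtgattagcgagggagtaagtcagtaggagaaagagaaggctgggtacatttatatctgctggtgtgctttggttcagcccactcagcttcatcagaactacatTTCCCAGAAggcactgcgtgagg

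In the first *Parp11* window an ISRE match on the reverse strand (TTTCGATTTC, from -44 to -35 of the start) ran into a GAS match (TTCTTGGAA, from -37 to -29), and the capitals mark both. In *Dtx2* the capitals mark a GAS match from -23 to -15. No match was found in the whole *Dtx3l* window or in the windows of *Parp12*, *Parp8* and *Parp3*, which says only that these letters are not there. Of 32851 promoter windows of the same length, 3.44% held an ISRE match and 8.3% a GAS match.

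Outside chromosome 16 the genes of the set lie on chromosomes 5 (*Dtx2*), 6 (*Parp11* and *Parp12*), 9 (*Parp3*), 10 (*Dtx3*), 13 (*Parp8*) and 15 (*Parp10*). The other Deltex genes had KO levels near those of WT. *Dtx3*, a ubiquitin ligase like *Dtx3l*, had normalized counts of 21.7, 25.9 and 21.4 in WT and 18.4, 20.0 and 16.0 in KO. The KO libraries lay below the WT libraries by a small margin, with a log2 fold change of -0.34 (SE 0.13). After the correction for GC content, which was 58.7% for *Dtx3* and the highest of the set, the value was -0.024 (SE 0.094) and the libraries overlapped. *Dtx2*, known from Notch signalling, had 30.3, 40.8 and 31.1 in WT and 32.4, 32.3 and 26.7 in KO. Its high WT library was replicate 2, the genotypes overlapped, and the log2 fold change was -0.16 (SE 0.14), -0.02 (SE 0.1) after the GC correction and -0.01 without WT replicate 2.

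The other mono-ADP-ribosylating enzymes also differed little. *Parp10*, which modifies proteins and nucleic acid ends, had 24.5, 27.6 and 25.7 in WT and 20.8, 22.8 and 16.7 in KO. Its KO libraries were all lower, with a log2 fold change of -0.37 (SE 0.14), but its transcript had a GC content of 57.9%, and after the correction the value was -0.098 (SE 0.085) with overlapping libraries. *Parp12*, a zinc finger PARP that restrains viral replication, had 49.7, 50.4 and 48.6 in WT and 44.2, 45.4 and 44.9 in KO. These were narrow groups that did not overlap with or without the correction, at log2 fold changes of -0.11 (SE 0.065) with it and -0.15 (SE 0.088) without it.

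*Parp11*, which acts on the turnover of the interferon receptor IFNAR1, had normalized counts of 15.9, 15.1 and 15.3 in WT and 16.7, 14.8 and 15.8 in KO. The genotypes were interleaved, with a log2 fold change of 0.033 (SE 0.11), or -0.063 (SE 0.1) after the GC correction. *Parp3*, an enzyme of DNA break repair, had 41.8, 51.9 and 43.9 in WT and 40.9, 38.8 and 38.4 in KO. Its KO libraries lay below WT by less than 1 normalized count at the nearest pair, at a log2 fold change of -0.22 (SE 0.11), or -0.12 without WT replicate 2, and overlapped WT after the correction at -0.12 (SE 0.08). *Parp8* had 33.4, 32.4 and 31.5 in WT and 37.7, 34.4 and 35.2 in KO. It was the 1 gene of the set with all KO libraries above WT, at a log2 fold change of 0.14 (SE 0.1), and with the lowest GC content (41.0%) its sign changed on correction, to -0.11 (SE 0.12) with overlapping libraries.

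**Figure D2:**
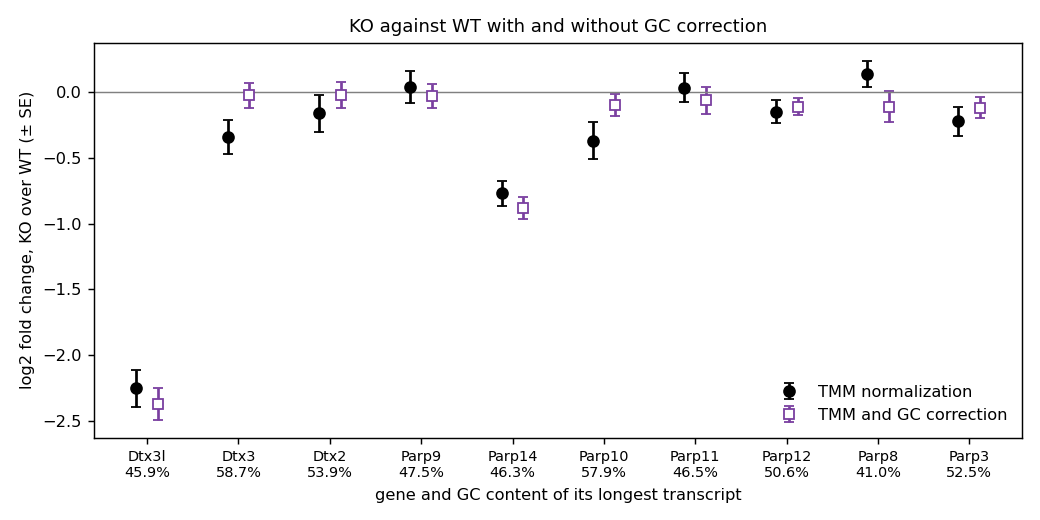
Log2 fold change of KO over WT (± SE, n = 3 libraries a genotype) for the 10 genes, with TMM normalization (black circles) and with a correction for GC content added (open purple squares); the GC content of the longest transcript is under each symbol. *Dtx3l* moved from -2.25 to -2.37 and *Parp14* from -0.77 to -0.88, while the other 8 genes spanned -0.37 to 0.14 before and -0.12 to -0.02 after the correction.

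Over the set, KO libraries lay below WT for 6 genes and above for 1, and 3 overlapped, where 18.8% of all genes tested had KO lower and 16.9% KO higher without overlap. After the GC correction KO lay below WT for 3 genes, *Dtx3l*, *Parp14* and *Parp12*, and above for none, and 7 overlapped, against 17.8% lower and 14.7% higher of all genes. The median log2 fold change was -0.19 for the set and 0.0091 for all genes tested, and -0.1 and -0.012 after the correction. Values below 0 were found for 7 of the 10 genes against 49.0% of all genes, and for 10 of 10 against 51.7% after the correction. Since the 10 genes were chosen with these fold changes known, the shares are a description and no evidence of a common decrease. After the correction *Dtx2*, *Dtx3*, *Parp9*, *Parp11* and *Parp8* lay closer to 0 than their SE. *Parp10*, *Parp12* and *Parp3* lay further from it, at -0.098, -0.11 and -0.12.

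Levels were compared between genes per transcript length, as TPM, in which the counts per base of the longest annotated transcript are scaled to the same total in every library. In WT the order from the highest mean was *Parp3* (38.7 ± 5.41 TPM), *Parp12* (38.3 ± 1.63), *Dtx3* (28.8 ± 3.88), *Parp14* (28.6 ± 0.667), *Parp8* (23.5 ± 1.0), *Parp10* (19.0 ± 1.57), *Parp9* (16.6 ± 0.726), *Dtx2* (15.7 ± 3.11), *Dtx3l* (12.2 ± 0.619) and *Parp11* (10.3 ± 0.277; SD, n = 3). Neighbours overlapped between libraries for *Parp3* and *Parp12*, *Dtx3* and *Parp14*, and *Parp9* and *Dtx2*, and the other neighbours were clear of each other. In KO the level of *Dtx3l* was 2.39 ± 0.29 TPM, the lowest of the set and clear of *Parp11* at 9.82 ± 0.918. *Parp14* at 15.7 ± 1.6 TPM went from place 4 in WT to place 6 in KO, overlapping *Parp9* (15.9 ± 1.11) and *Parp10* (13.8 ± 2.45). With the joined exons of a gene as its length, *Dtx3l* was in place 8 in WT and place 10 in KO, *Parp14* was in place 3 in WT and place 4 in KO, and *Parp8*, whose exons sum to 8882 bases against 3436 for its longest transcript, dropped from place 5 to place 9 in WT.

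**Figure D3:**
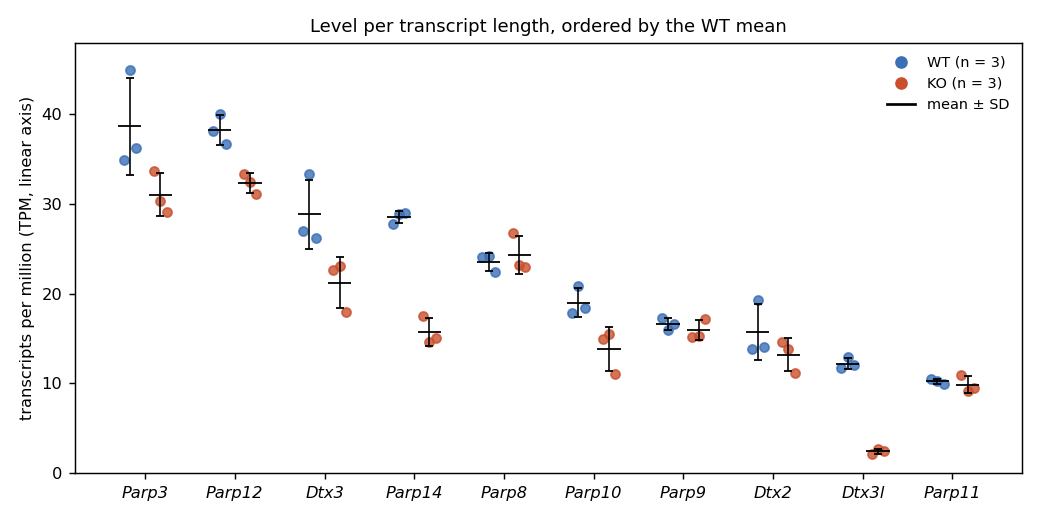
Level per transcript length (TPM, linear axis) of the 10 genes in each WT (blue) and KO (orange) library, ordered by the WT mean, with black bars for the mean ± SD (n = 3). *Dtx3l* stands at 12.2 TPM in WT, between *Dtx2* and *Parp11*, and at 2.39 TPM in KO, below every other gene of the set.

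Since *Dtx3l*, *Parp9* and *Parp14* lie together on chromosome 16, the genes around them were described too. Within 200 kb of *Dtx3l* there were 18 annotated genes, of which 9 had enough reads, and 6 of those were outside the set. None of these 6 passed the limits in edgeR's quasi-likelihood test or in DESeq2, while an unadjusted p under 0.05 was reached by 2 of them, both higher in KO, against 13.0% of all genes. *Mix23* had a mean of 12.3 ± 2.01 normalized counts in WT against 20.0 ± 6.17 in KO, with a log2 fold change of 0.70 (SE 0.23), 0.66 after the GC correction, and an adjusted p of 0.148 in edgeR. *Fam162a* had 14.7 ± 2.13 and 20.5 ± 3.73, at 0.48 (SE 0.17), 0.38 after the correction, and an adjusted p of 0.154. WT and KO libraries overlapped for all 6.

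The nearest tested gene beyond the set, *Kpna1*, which encodes an importin of nuclear transport, starts 39.6 kb from *Dtx3l* and had a mean of 98.7 ± 8.78 normalized counts in WT against 110.0 ± 12.3 in KO (log2 fold change 0.15, SE 0.11, adjusted p = 0.403 in edgeR), its sign turning to -0.074 with the GC correction. On the side of *Parp14*, *Hspbap1* and *Slc49a4* had log2 fold changes of -0.15 (SE 0.19) and -0.13 (SE 0.13), and on the other side *Wdr5b* had -0.08 (SE 0.17). The GC correction gave -0.31, -0.16 and -0.21 for these 3 genes, and their adjusted p in edgeR without it was 0.616, 0.554 and 0.776. *Dtx3l* and *Parp14* were thus the tested genes of the stretch whose KO libraries lay below WT. *Parp9*, whose start is 0.7 kb from that of *Dtx3l* and whose body runs away from *Parp14*, was at 0.04.

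**Figure D4:**
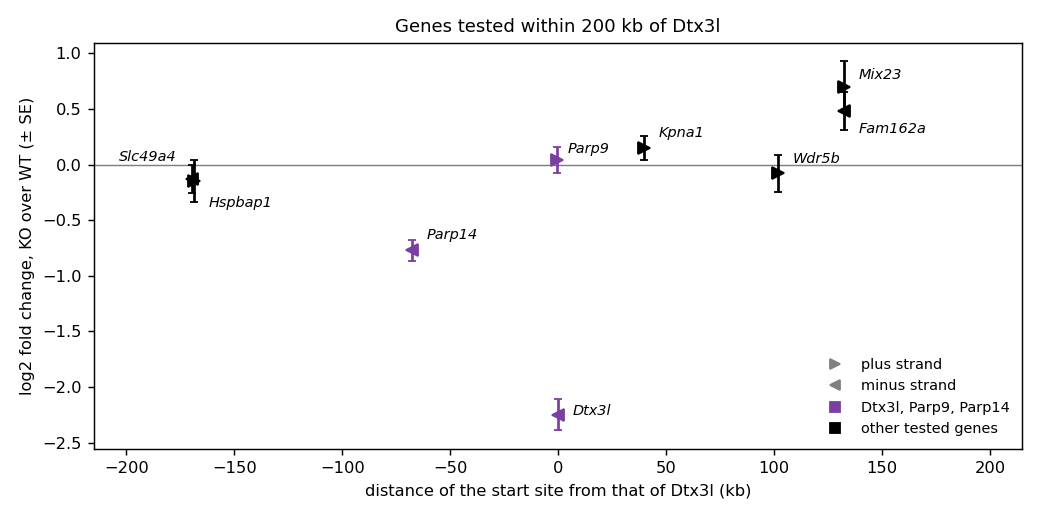
Log2 fold change of KO over WT (± SE) of the 9 genes tested within 200 kb of *Dtx3l*, by the distance of each start site from that of *Dtx3l* in kb; triangles point along the strand, purple for *Dtx3l*, *Parp9* and *Parp14* and black for the other 6. *Dtx3l* is at -2.25 and *Parp14* at -0.77, and the other 7 genes lie between -0.15 and 0.70.

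Because several genes of the set are known targets of interferon, the genes of interferon signalling were counted beside them, from a list chosen with earlier results of these data known. Of 19 such genes 15 were tested. None passed the limits in edgeR, 6 were lower and 0 higher in KO at an unadjusted p under 0.05 (40.0%, against 13.2% of all genes lower), and 1, *Irf7*, passed the limits in DESeq2, where 0.695% of all genes did so as lower. Their median log2 fold change was -0.13, and -0.22 after the GC correction, and with each library left out in turn 4 to 7 genes were lower at that p, the lowest count being without WT replicate 2, and the median was -0.2 to -0.13, the former without WT replicate 3. Of the ligands, *Ifnb1*, *Ifna4*, *Ifng* and *Ifnl3* had 0 counts in all 6 libraries, and a count of 0 allows up to 0.15 to 0.173 normalized counts in a library.

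*Irf7*, the transcription factor that amplifies type I interferon, had 16.4, 16.9 and 17.8 normalized counts in WT cultures and 7.81, 8.97 and 7.74 in KO. Its genotypes were well apart, with a log2 fold change of -1.06 (SE 0.12), -0.88 after the GC correction, and an adjusted p of 0.0635 in edgeR's test. Of the factor that carries the interferon signal to genes, *Stat2* had 34.2 ± 2.22 in WT and 24.9 ± 3.03 in KO (log2 fold change -0.46, SE 0.12) and *Irf9* had 31.6 ± 2.64 and 25.1 ± 1.86 (-0.33, SE 0.11). The receptor-bound kinase gene *Tyk2* was at -0.52 (SE 0.16), the receptor gene *Ifnar1* at -0.25 (SE 0.096), and *Usp18*, which dampens the receptor, at -0.73 (SE 0.18). After the GC correction *Stat2* was at -0.38, *Irf9* at -0.30, *Tyk2* at -0.29, *Ifnar1* at -0.23 and *Usp18* at -0.68. Without it the adjusted p of these 5 genes in edgeR was 0.147 to 0.161, and the KO libraries of each lay below its WT libraries. The other chain of that receptor, *Ifnar2*, was at 0.07 (SE 0.083) with KO libraries above WT, and the other receptor-bound kinase gene, *Jak1*, was at -0.13 (SE 0.085), or 0.10 and -0.20 after the GC correction.

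Of 49 other interferon-stimulated effectors 48 were tested, again from a list chosen with earlier results known. None passed the limits in edgeR, 19 were lower and 0 higher in KO at an unadjusted p under 0.05 (39.6%, against 13.2% of all genes lower), and 5 passed in DESeq2, all lower, against 0.695% of all genes. The median log2 fold change was -0.28, and -0.3 after the GC correction, with 38 of 48 genes below 0 and a range of -1.01 to 0.14. With each library left out in turn 14 to 23 genes were lower at that p, and the median was -0.3 to -0.24. The 2-5A synthetase family, which senses double-stranded RNA, gave the lowest p-values of the list. *Oasl2* had 18.2, 18.0 and 20.6 normalized counts in WT cultures and 8.38, 10.6 and 9.27 in KO, with a log2 fold change of -1.01 (SE 0.13), the same to 2 decimals after the GC correction, and an adjusted p of 0.0805 in edgeR. *Oas3* had 45.8 ± 4.28 and 25.2 ± 2.25 (-0.86, SE 0.12, -0.71 after the GC correction, adjusted p = 0.0815 in edgeR). Further down were *Oas1a* (-0.60, and -0.51 after the correction), *Oas2* (-0.68 and -0.65), *Oasl1* (-0.80 and -0.58) and the RNA-editing enzyme gene *Adar* (-0.48 and -0.36). Reads of the close copies within the 2-5A synthetase family may have been split between them. *Dtx3l* at -2.25 lay below every tested gene of both lists, *Parp14* at -0.77 lay within their range, and *Parp9* at 0.04 lay above their medians.

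**Figure D5:**
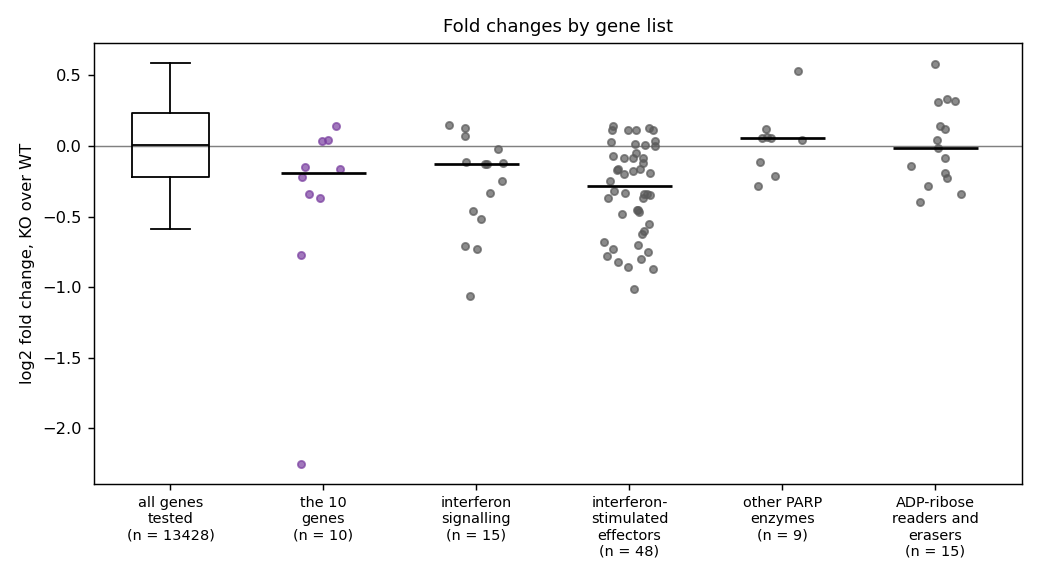
Log2 fold change of KO over WT by gene list. The box spans percentiles 25 to 75 of the 13428 genes tested (-0.223 to 0.235), with whiskers at percentiles 5 and 95 (-0.586 and 0.591); points are single genes and black bars medians, -0.19 for the 10 genes, -0.13 for interferon signalling and -0.28 for interferon-stimulated effectors.

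The rest of the ADP-ribosylation machinery showed no common direction. Of 26 further PARP, Deltex and ADP-ribose genes 25 were tested, 0 passed the limits in edgeR or DESeq2, and 3 were lower and 4 higher in KO at an unadjusted p under 0.05, against 13.2% lower and 13.0% higher of all genes. Their median log2 fold change was 0.046, and its sign turned with the GC correction (-0.0071) and without KO replicate 3 (-0.026). *Tiparp*, a mono-ADP-ribosylating PARP induced by the aryl hydrocarbon receptor, had a mean of 40.0 ± 3.87 normalized counts in WT against 57.7 ± 14.4 in KO (log2 fold change 0.53, SE 0.17, adjusted p = 0.147 in edgeR), and the GC correction gave 0.24. *Parp1*, the main poly-ADP-ribosylating enzyme of DNA damage, was at -0.28 (SE 0.11), or -0.18 with the correction, and the tankyrase gene *Tnks* at -0.21 (SE 0.087), or -0.29 with it. *Zc3hav1*, the antiviral zinc finger protein of the PARP family, was at 0.044 (SE 0.086), its sign turning to -0.06 with the correction, and was named for its antiviral role after its values were seen.

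Among the other Deltex genes, *Dtx4* had a mean of 126.0 ± 9.75 normalized counts in WT against 148.0 ± 7.69 in KO (log2 fold change 0.23, SE 0.096, and 0.32 after the GC correction), and *Dtx1* was too low to be tested, with a mean of 0.192 in WT and 0.139 in KO. Among genes that read or remove ADP-ribose, *Hpf1*, which directs PARP1 to serine residues, was at 0.58 (SE 0.17), *Rnf146*, a ubiquitin ligase that reads poly-ADP-ribose, at 0.32 (SE 0.097), and the hydrolase gene *Adprs* at -0.34 (SE 0.14). The GC correction brought these 3 values to 0.28, 0.13 and -0.066.

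The 5 tested genes whose centred log2 profile over the 6 libraries came closest to that of *Dtx3l* were *Ttc39aos1*, *Ttc39a*, *Mid1-ps1*, *Siglec1* and *Oas1g*, with root mean square differences of 0.393, 0.473, 0.504, 0.527 and 0.544 on the log2 scale. Their Pearson r with *Dtx3l* over the 6 libraries was 0.96, 0.982, 0.971, 0.897 and 0.958, given as a description, since any gene that differs between the genotypes shares most of this profile. The first is the deleted noncoding RNA itself, at 0 in every KO library and 1.0 to 2.15 normalized counts in WT, so the pseudocount of 1 sets much of its place in this order. *Ttc39a* had 2.26, 3.12 and 2.47 normalized counts in WT cultures and 0.573, 0.748 and 0.509 in KO. *Mid1-ps1* had 2.06 ± 0.157 in WT and 0.403 ± 0.151 in KO. At such low levels the pseudocount bears on the places of these genes too. *Siglec1*, a sialic acid-binding receptor of macrophages that interferon is known to induce, had 45.3 ± 6.32 in WT and 18.6 ± 5.49 in KO. *Oas1g*, of the 2-5A synthetase family and with near-identical copies among which reads may be split, had 10.8 ± 1.17 and 4.85 ± 1.16.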

How the data were processed

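RNA of 3 WT and 3 KO cultures was sequenced from stranded mRNA libraries. The authors deposited a table of estimated counts per gene. Their processing notes name fastp, HISAT2, StringTie, RSEM and the build GRCm39, with no versions or roles, and the labels give each library a batch name of its own, so batch and library cannot be told apart.

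Estimated counts were rounded to whole numbers. In R 4.3.3 with edgeR 4.0.16, genes were kept by filterByExpr, scaled by TMM and compared with the quasi-likelihood test (glmQLFit, legacy = FALSE), with Benjamini-Hochberg adjustment over 13428 genes. DESeq2 1.42.0 and limma 3.58.1 (voom) served as alternatives. The limits were an adjusted p under 0.01 and a fold above 1.3. For the GC correction, a natural spline of GC content (5 df) was fitted per library and entered as offsets. Gene positions, lengths and GC content came from GENCODE M21 (GRCm38), matched by gene ID, and promoter windows from RefSeq. Scripts were tested on simulated counts with 200 changed genes.

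The 10 genes and the gene lists were chosen with earlier results of these data known. The genes named are the 10, *Ttc39aos1*, up to 6 genes of each list with the lowest p, the tested genes within 200 kb of *Dtx3l*, and the 5 closest profiles (log2 with a pseudocount of 1). *Zc3hav1*, the untested *Dtx1* and interferon ligands, *Ifnar2*, *Jak1*, single marker genes and, for exons shared with genes of the set, *Plec* and *Rrp9* were named outside this rule, after their values were seen. Markers of B cells, T and NK cells, stromal and erythroid cells summed to 6.56 to 7.57, 0.15 to 0.367, 24.4 to 32.9 and 0.164 to 0.735 normalized counts in WT, and to 7.33 to 9.2, 0.153 to 0.46, 21.5 to 30.7 and 0.0521 to 0.345 in KO. No pair of libraries agreed within sampling noise (lowest chi-square per degree of freedom 3.58). The floor of 3 counts covers counting error only.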

Additional observations from a re-analysis of the deposited data

How the results depend on the processing

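Over all genes the count past the limits was 1 in edgeR, 126 in DESeq2, 4 with the GC correction, 335 with the GC correction and DESeq2, and 0 to 2 with a library left out. For the 10 genes it was 1, 2, 2, 2 and 0 to 1 in the same order, and for the genes near *Dtx3l*, which include it and *Parp14*, also 1, 2, 2, 2 and 0 to 1. It was 0 without WT replicate 2, WT replicate 3 or KO replicate 2, and the 2 genes called without KO replicate 1 were lower in KO. The counts for the 10 genes, and with them those near *Dtx3l*, follow from how the 10 were chosen. For interferon signalling the count of 0 became 1 in DESeq2 with or without the GC correction, and for the effectors it became 5 in DESeq2 and 9 in DESeq2 with the GC correction, staying at 0 in edgeR with that correction. For further PARP, Deltex and ADP-ribose genes it was 0 in every alternative tried. The 3 genes lower at an unadjusted p under 0.05 became 0 without WT replicate 2 and 4 without KO replicate 1. They became 1 without WT replicate 1, WT replicate 3, KO replicate 2 or KO replicate 3, and with the GC correction and replicate block. The 4 higher genes became 2 without WT replicate 1 and were 3 or 4 with another library left out. The cause of these moves was not tested. *Dtx3l* kept its direction throughout, between -2.34 and -2.13 with a library left out. *Parp8*, *Parp9* and *Parp11* changed sign with the GC correction, and *Parp9* and *Parp11* also with a library left out. With all exons as length, *Dtx3l* stood in place 8 of the WT levels in place of 9. Replicate numbers did not pair the libraries (r of same-numbered deviations -0.329, 0.136 and 0.266), and the replicate block left the count at 1 over all genes, 1 for the 10 genes, 1 near *Dtx3l* and 0 for each other list. Added to the GC correction in edgeR, the block took the count from 4 to 1 over all genes. It then went from 2 to 1 for the 10 genes and from 2 to 1 near *Dtx3l*. The level of *Dtx3l* in KO rests on 87.1 to 113 estimated counts per library.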
